A study of Mus musculus with 20 samples.

Results

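Alb, Tdo2 and Lcn2, 3 genes of hepatocyte function and the acute-phase response, were followed across 20 spotted cDNA arrays, each hybridised with RNA of mouse tissue in a pair of dyes. Their clones were taken by gene annotation, and each gene had 1 clone, Alb and Tdo2 on the first of 2 array designs and Lcn2 on the second, out of 6970 annotated genes in all. The genes were chosen by their log ratios between the lines on these same arrays, so those ratios are given as values and no test is read from them. The arrays compared the Fob3b line with the F line in liver and in brown adipose tissue (BAT), the heat-producing fat depot. By background knowledge F is a mouse line selected for fatness and Fob3b is the name of an obesity locus, and the labels say no more on genotype. Each line and tissue was represented by 2 RNA pools, and the labels used here give neither the number of animals in a pool nor their age, sex or treatment. Pools of like number formed a pool pair, Fob3b with F, which was hybridised once with Fob3b in red and once in green. The number of replicates per tissue is that of the pool pairs, n = 2. BAT arrays of pool pair 2 are of the first design, and those of pool pair 1 of both. The first design also held 1 liver array of Fob3b pool 1 against itself and 1 of F pool 1 against itself. The second held 4 more liver arrays, of which 2 set a Fob3b pool against the F pool of the other number and 2 set a line's pool 2 over its pool 1. On the BAT arrays of the second design and the array of Fob3b against itself, the description and the channel labels differed in which lines they name. The channel labels were used throughout.

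Alb encodes serum albumin, the main plasma protein made by hepatocytes. Tdo2 encodes tryptophan 2,3-dioxygenase, which opens the ring of tryptophan at the start of the kynurenine pathway to NAD and is largely a liver enzyme. Lcn2 encodes lipocalin 2, a secreted protein that binds bacterial iron-carrying siderophores, is stored in neutrophil granules and is made by hepatocytes and fat cells in the acute-phase response. In that response inflammatory cytokines act on hepatocytes through STAT3, C/EBP and NF-kB factors, and albumin mRNA is known to fall while acute-phase mRNAs rise. The liver-enriched factor HNF1 is a known activator of the Alb promoter.

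The promoters are shown because Alb and Tdo2 stand for hepatocyte-enriched genes and Lcn2 for an inducible one. Each is the stretch of 200 bases before the annotated start, on the strand of the gene, from RefSeq's table for GRCm38.p6, in which all 3 genes matched by symbol. Capitals mark matches, on either strand, to any of 7 searched motifs, and the matches did not overlap each other. The windows are chr5:90460670-90460869 on the plus strand for Alb, chr3:81975729-81975928 on the minus strand for Tdo2 and chr2:32387740-32387939 on the minus strand for Lcn2.
Alb: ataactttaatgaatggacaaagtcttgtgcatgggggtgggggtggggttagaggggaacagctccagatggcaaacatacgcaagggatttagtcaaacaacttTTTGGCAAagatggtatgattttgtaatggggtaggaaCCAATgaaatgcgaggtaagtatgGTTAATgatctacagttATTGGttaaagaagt
Tdo2: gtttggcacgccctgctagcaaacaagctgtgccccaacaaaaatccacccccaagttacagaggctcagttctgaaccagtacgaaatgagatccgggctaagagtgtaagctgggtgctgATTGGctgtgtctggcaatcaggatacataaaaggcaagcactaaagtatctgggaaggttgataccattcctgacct
Lcn2: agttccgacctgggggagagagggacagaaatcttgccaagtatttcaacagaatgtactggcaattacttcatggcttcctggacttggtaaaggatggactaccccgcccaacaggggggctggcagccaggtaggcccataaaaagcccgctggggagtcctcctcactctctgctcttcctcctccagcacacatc

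The Alb window held the part GTTAAT of the HNF1 element, and 5.06% of 32851 promoter windows of the same length also held it. It held CCAAT on both strands, where 29.3% of windows held it on at least 1 strand, and the C/EBP element TTGCNNAA (7.47%). The Tdo2 window held 1 CCAAT, on the opposite strand. TATAAA (9.96% of windows), the part TGTTCT of the glucocorticoid receptor element (12.9%), the STAT3 site TTCNNNGAA (5.49%) and the consensus NF-kB site (6.07%) were found in none of the 3 windows. No motif of the 7 was found in that of Lcn2. A match is a run of letters and not a measured site, and the lack of one says only that these letters are not in this window.

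All values below are log2 ratios of Fob3b over F, centred on the median clone of each array. They come without intensities, so levels could not be compared between genes or tissues, and the labelled tissues could not be checked against the level of their markers. In pooled tissue, fewer cells of a type and less RNA per cell cannot be told apart. Which dye is divided by which is not labelled. A negative ratio means less RNA in Fob3b if red was divided by green, and all signs turn together if green was divided by red. The precision is limited by the number of arrays. Once turned to Fob3b over F, the dye orientations of a liver pool pair correlated over clones at 0.16 and -0.29 on the first design and at 0.08 and 0.40 on the second. In BAT they correlated at -0.23 and -0.60 on the first design and at 0.47 on the second, and the crossed-pool arrays correlated at -0.32. Arrays of the same pools in opposite dyes thus often went against each other. Dye swaps of a pool pair were averaged all the same, those of BAT at -0.60 among them. The 2 crossed-pool arrays are of different pools and both have pool 2 in red, so their correlation is not that of a dye swap. They have no settled common direction, and each is given on its own with the sign its channel labels give.

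In liver, with each array centred on its median clone, Alb lay below 0 on all 4 arrays of the lines. Of the 4, 1 gave most of the size. In pool pair 1 its ratio was -0.25 with Fob3b in red and -2.27 with Fob3b in green, and in pool pair 2 it was -0.28 and -0.15. The array of pool pair 1 with Fob3b in green therefore stood far below the other 3, which lay close together. Both spots of the clone showed it there, at -2.01 and -2.53. The pool pairs averaged -1.26 and -0.21, with a mean of -0.74 (SE 0.25, SD 0.74, n = 2 pool pairs), a 1.67-fold difference. Of 7680 clones 19 had a lower liver mean. Without the array that stood apart the mean was -0.23, and with pool pair 2 alone it was -0.21. With each printing block centred on its own median, Alb had 0.11 with Fob3b in red and -2.18 in green in pool pair 1. In pool pair 2 it then had -0.04 and -0.08. The mean was then -0.55 (SE 0.23), and Alb was no longer below 0 on all 4 liver arrays. With Fob3b in red in pool pair 1, the 10 clones printed nearest had a median of -0.39, below Alb. The errors given as SE are limma's moderated standard errors, in which all clones lend information on the spread of each. For the liver means of Alb, Tdo2 and Lcn2 alike, the SE was smaller than the 2 pool pairs alone would give.

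**Figure D1:**
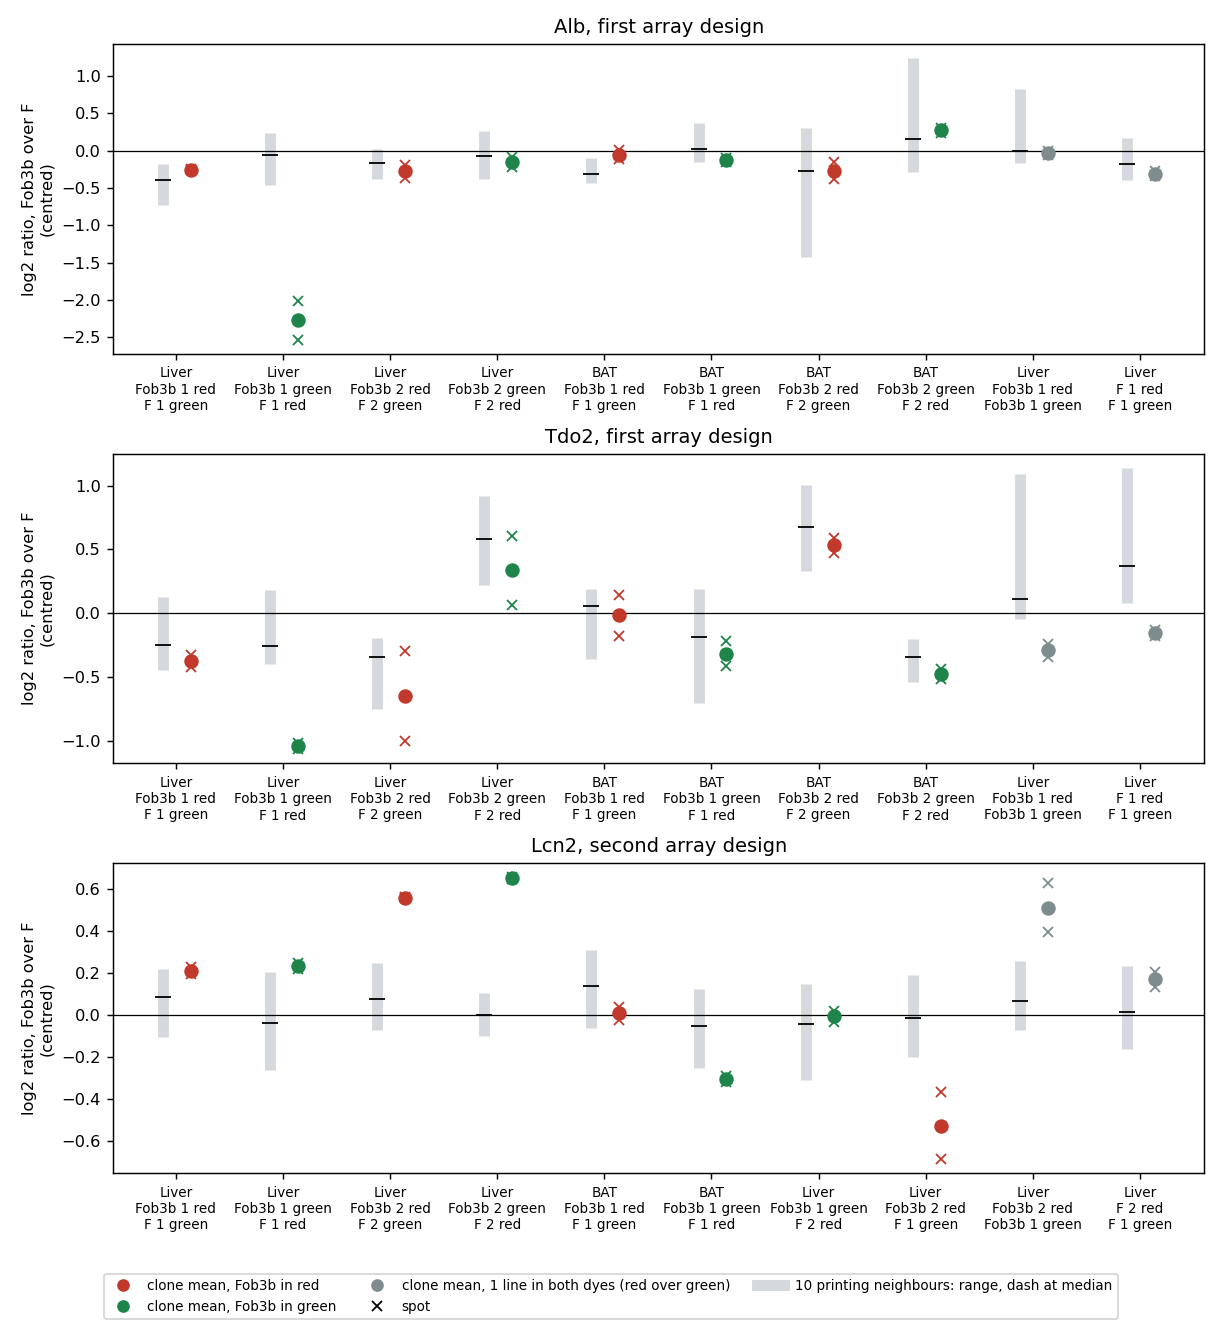
Centred log2 ratios of Alb, Tdo2 and Lcn2 on every array of their design, with circles for clone means, crosses for spots and bars for the range of the 10 clones printed nearest, dashed at their median; grey circles are arrays with 1 line in both dyes, red over green, and the numbers after Fob3b and F are pool numbers. Alb stands at -2.27 on 1 liver array and between -0.31 and 0.27 on the other 9, Tdo2 in pool pair 2 changes sign with the dye as its neighbours do, and Lcn2 lies above 0 on the 4 direct liver arrays and at -0.53 on 1 crossed-pool array.

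On the array that stood apart, Alb did not share its low value with the clones printed beside it. Its 10 nearest clones, 5 on each side in the same block, had a median of -0.06 on that array and ranged from -0.45 to 0.23. Clones in other places were as low, however. On that array 638 of 7680 clones (8.31%) lay below -1 and 0 lay above 1, against 36 and 21 on the array of the same pools with Fob3b in red. The 638 clones, 361 genes among them, had a median of -1.33 on the array where they were chosen. On the others they had -0.14 with Fob3b in red in pool pair 1, where 73.7% were below 0, and 0.19 and 0.07 in pool pair 2, where 35.6% and 41.2% were. Having been chosen for low values on 1 array, they lie higher elsewhere in part by that choice. In pool pair 2 Alb had 1943 of 7680 clones below it with Fob3b in red and 2624 with Fob3b in green. Alb was itself chosen by its ratios on these arrays, so its sign there does not set it apart from the 638 clones.

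On that array 33 clones in 15 of the 48 printing blocks lay below Alb, and 21 of them had 1 gene, with 19 genes among them. Named after their values were seen, they included Atp1b1, a subunit of the sodium pump, at -3.02 and Ahcy, which hydrolyses S-adenosylhomocysteine, at -2.43. They also included Gldc of the glycine cleavage system with 3 clones at -2.45, -2.36 and -2.30, and Cdo1, which oxidises cysteine, at -2.31. Aldh7a1, an enzyme of lysine breakdown, had -2.28. The rest of the 19 were Hjurp, Atp5a1, Nit2, Idh1, Hsp90b1, Hspa8, Snx22, Zfp943, Arpc2, Map3k12, Rps18, Stat2, Mocs1 and Samhd1. Without that array the mean of pool pairs was 0.06 for the Atp1b1 clone, -0.07 for the Ahcy clone, -0.18 for the Cdo1 clone and 0.21 for the Aldh7a1 clone. The 3 Gldc clones, in the order above, then had 0.18, -0.0039 and 0.29. How far the array, and not the RNA of the pools, made Alb low was not tested.

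**Figure D2:**
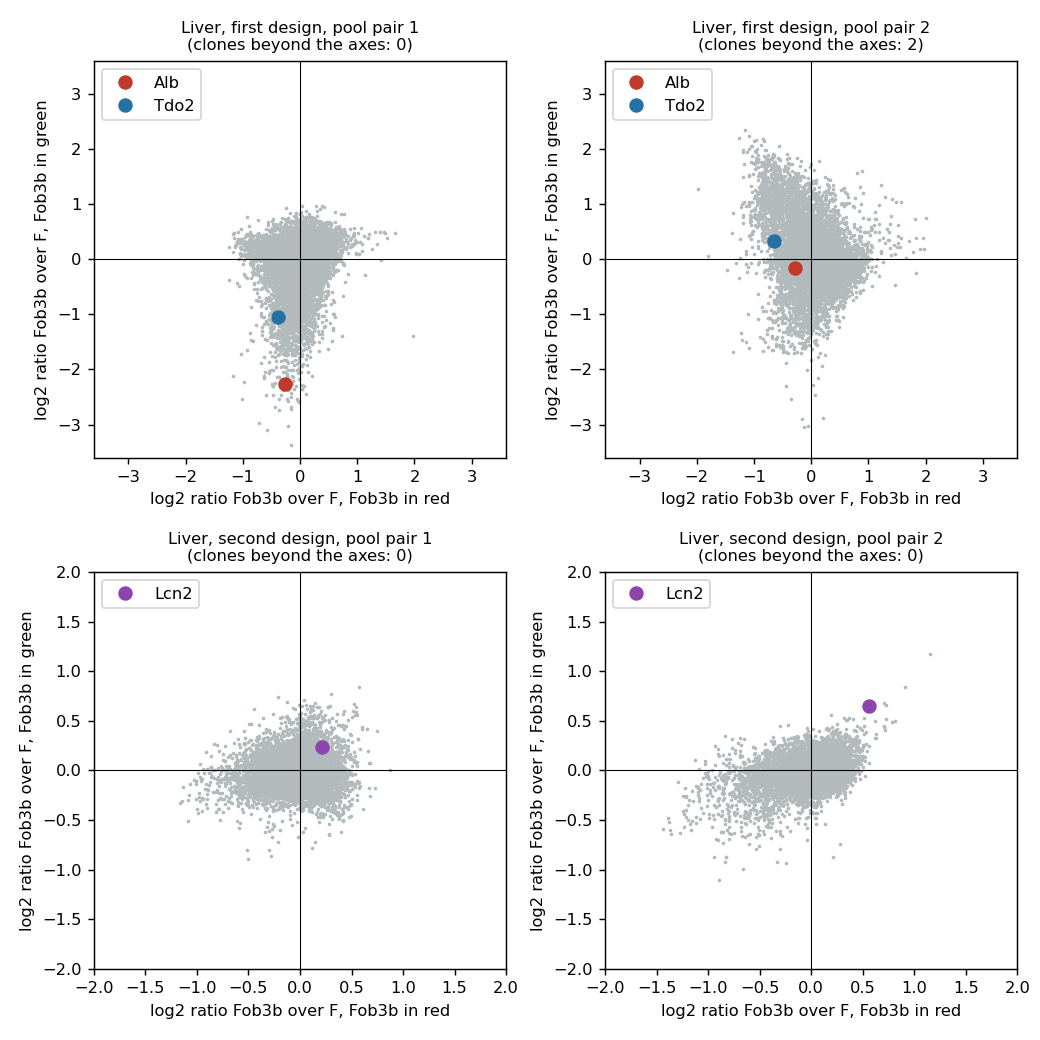
Each point is a clone in liver, with its log2 ratio of Fob3b over F with Fob3b in red on the x axis and with Fob3b in green on the y axis, for both pool pairs and designs. In pool pair 1 of the first design the cloud has a tail towards negative y alone, in which Alb lies at -2.27 and Tdo2 at -1.04, whereas Lcn2 in pool pair 2 of the second design lies towards the positive end on both axes, at 0.56 and 0.65.

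Tdo2 had a smaller ratio in liver, negative on 3 of 4 arrays. In pool pair 1 it was -0.38 with Fob3b in red and -1.04 with Fob3b in green, and in pool pair 2 it was -0.65 and 0.34. The dye orientations agreed in sign in pool pair 1 and differed in pool pair 2. The pool pairs averaged -0.71 and -0.16, with a mean of -0.43 (SE 0.21, SD 0.39, n = 2 pool pairs), a 1.35-fold difference, and 216 clones had a lower mean. The array on which Alb was low was also the lowest for Tdo2, with spots at -1.02 and -1.07, and without it the Tdo2 mean was -0.27. On the array of pool pair 2 with Fob3b in red the spots of Tdo2 lay far apart, the upper one at -0.29 around a clone mean of -0.65.

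The sign change of Tdo2 in pool pair 2 was shared by the clones printed around it. Its 10 nearest clones had a median of -0.34 with Fob3b in red and 0.58 with Fob3b in green in liver, and of 0.68 and -0.34 in BAT, each on the side of 0 on which Tdo2 lay. With each printing block centred on its own median, Tdo2 in liver had -0.49 and -0.21 in pool pair 2, -0.22 and -0.96 in pool pair 1, and a mean of -0.47 (SE 0.11). It was then negative on all 4 liver arrays. The same centring gave Tdo2 -0.56 on the array of Fob3b pool 1 against itself and -0.60 on that of F pool 1 against itself. By the channel labels neither holds a line difference. Both were larger in size than its mean between the lines, but they are not alike in measure. Each is 1 array read as red over green, whereas that mean averages both dye orientations.

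No clone on the first design, member or not, passed the test across clones. With limma and Benjamini-Hochberg adjustment 0 of 7680 clones (0%) had an adjusted p under 0.05 in liver, and 253 had an unadjusted p under 0.05. Alb and Tdo2 were thus not called, and with 0% called on the whole design nothing is read from this for either gene. With liver pool pair 1 alone, its spread taken from BAT, 131 clones were called, 128 of them lower, and with liver pool pair 2 alone 32 were called.

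In BAT, where neither gene is known as a marker, the means of both lay near 0, though not every array did. Alb was at -0.05 with Fob3b in red and -0.13 with Fob3b in green in pool pair 1. It was at -0.27 and 0.27 in pool pair 2, and its BAT mean was -0.04 (SE 0.25, n = 2 pool pairs). Tdo2 was at -0.02 and -0.32 in pool pair 1 and at 0.53 and -0.48 in pool pair 2, and its BAT mean was -0.07 (SE 0.21, n = 2 pool pairs). In pool pair 2 both genes changed sign with the dye, so their averages there are of arrays that disagree. In BAT 0 of 7680 clones (0%) passed and 65 had an unadjusted p under 0.05.

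Liver minus BAT was -0.70 for Alb (SE 0.35) and -0.36 for Tdo2 (SE 0.30). In limma's contrast of the tissues 0 of 7680 clones (0%) passed, and 217 had an unadjusted p under 0.05. Without the array on which Alb stood apart the differences were -0.19 (SE 0.26) and -0.20 (SE 0.26). Ordered by mean ratio, the tissues ran liver then BAT for both genes, and without that array the tissues lay closer than the SE of their difference.

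By their channel labels, the arrays of a pool against itself show what the clones gave with no line difference. For the array of Fob3b pool 1 the description differs from the labels in the lines it names. Alb had -0.03 for Fob3b pool 1 and -0.31 for F pool 1, and Tdo2 had -0.29 and -0.15. These are red over green and have no direction between lines. The Alb ratio of F pool 1 against itself was farther from 0 than its ratio on 3 of the 4 liver arrays between the lines.

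Lcn2 was the member whose direct liver arrays agreed in sign and between dyes. In pool pair 1 its ratio was 0.21 with Fob3b in red and 0.23 with Fob3b in green, and in pool pair 2 it was 0.56 and 0.65. The 4 arrays were all above 0, the dyes of a pair differed by less than the pairs did, and pool pair 2 was the higher. Duplicate spots lay close, at 0.66 and 0.65 on the highest array. The pool pairs averaged 0.22 and 0.61, with a mean of 0.42 (SE 0.10, SD 0.27, n = 2 pool pairs), a 1.33-fold difference, and 13 of 7680 clones had a higher mean. On the array of pool pair 2 with Fob3b in green 4 clones were higher, and on that with Fob3b in red 14 were.

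The 10 clones printed nearest to Lcn2 had medians between -0.04 and 0.09 on these 4 arrays. With each printing block centred Lcn2 had 0.08 and 0.16 in pool pair 1 and 0.58 and 0.68 in pool pair 2, and its mean was 0.37. The array medians of pool pair 2 as deposited were -0.82 with Fob3b in red and 0.31 with Fob3b in green, and without centring the mean was 0.05. By limma 25 clones (0.326%) were called in liver on this design, 23 lower (0.299%) and 2 higher (0.026%), with 758 at an unadjusted p under 0.05. Lcn2 was not among them. By limma 0 clones were called with each printing block centred, with the spread of the arrays made equal, with either dye alone or with the crossed-pool arrays added, while 159, all lower, were called without centring.

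The crossed-pool arrays read the same 4 liver pools in other pairs and did not give the same picture of Lcn2. Fob3b pool 1 over F pool 2 was -0.0048, and Fob3b pool 2 over F pool 1 was -0.53, with spots at -0.37 and -0.68. Within the lines, Fob3b pool 2 over Fob3b pool 1 was 0.51, with spots at 0.63 and 0.40, and F pool 2 over F pool 1 was 0.17. Each is 1 array with pool 2 in red and no dye swap, and the crossed-pool arrays also had pool 2 in red. The 0.51 is therefore not ranked against the mean of 0.42 between the lines, which came from 4 arrays in both dyes.

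The other arrays lead from one pool to another by different routes, and their log ratios can be added. Fob3b pool 2 over F pool 1 came to 0.74 through the Fob3b pools and to 0.78 through the F pools, both far above the -0.53 measured on the crossed-pool array. That gap, -1.28, was exceeded in size by 8 clones, where the median clone had 0.15. Fob3b pool 1 over F pool 2 came to 0.09 through the Fob3b pools and to 0.05 through the F pools, close to the measured -0.0048, a gap of -0.08. Lcn2 therefore fitted together on 7 of the 8 liver arrays of the design, and the array of Fob3b pool 2 against F pool 1 went the other way. With the sign of that array turned, Lcn2 would stand at 0.53 on it, a gap of -0.23 to the routes that 3057 clones exceeded in size. Over all clones the turned sign gave the larger median gap, 0.19 against 0.15 as labelled.

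**Figure D3:**
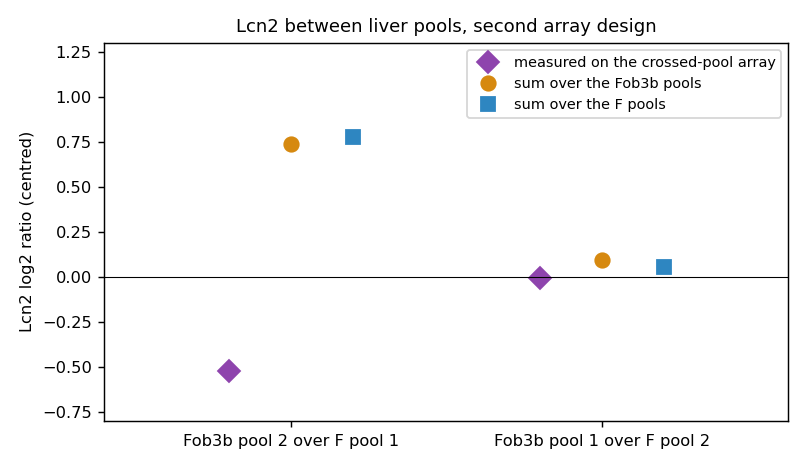
Lcn2 log2 ratios on the second design, as measured on each crossed-pool array (diamond) and as the sum of other arrays that link the same pools through the Fob3b pools (circle) or the F pools (square). The sums lie at 0.74 and 0.78 beside a measured -0.53 for Fob3b pool 2 over F pool 1, and at 0.09 and 0.05 beside a measured -0.0048 for Fob3b pool 1 over F pool 2.

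Lcn2 was not alone in this. Of the 8 clones with a larger gap on that array, 7 had a gene, and they were named after their values were seen. Alas1, the first enzyme of haem synthesis, had 1.21 measured and -0.90 by the routes, and Msmo1, a sterol methyl oxidase, had -0.94 and 0.94. The deadenylase gene Noct had 0.98 and -0.95 for 1 clone and 0.68 and -0.87 for another, and the rest were Txnip, Slc38a2 and Fbxo21. Each had the sign opposite to the routes, which a large gap favours. Among clones chosen by the size of their routes, without that array, the opposite sign on it was found in 137 of 276 (49.6%) beyond 0.4, in 61 of 110 (55.5%) beyond 0.5 and in 28 of 46 (60.9%) beyond 0.6. On the other crossed-pool array it was found in 100 of 259 (38.6%) beyond 0.6. Over all clones the measured ratio correlated with the routes at 0.10 for that array and at 0.29 for the other crossed-pool array. The channel labels of the array were used as given, and whether they are right was not tested.

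In BAT, Lcn2 was measured in pool pair 1 alone, at 0.01 with Fob3b in red and -0.30 with Fob3b in green, a mean of -0.15 with no test. In liver the same pool numbers gave 0.22, and the difference, liver minus BAT over all pool pairs, was 0.56 with no test. On the same BAT arrays the 3 measured skeletal muscle markers had a median of 0.69, with Tpm2, a tropomyosin, at 0.74 and Mylpf, a fast myosin light chain, at 0.69, each above 0 on both arrays. On the first design the BAT arrays of the same pool pair gave the opposite sign for muscle: its 2 measured markers, Tpm2 and Actn3, had medians of -0.59 with Fob3b in red and -0.87 with Fob3b in green. Tpm2 averaged -0.58 (SE 0.22) there over both pool pairs. The Lcn2 and muscle values of the second-design BAT arrays rest on channel labels that name Fob3b and F, while the descriptions name F against F. Read by the descriptions, these values would hold no line difference, and liver minus BAT would not compare line ratios. With the lines exchanged instead, the Lcn2 mean of -0.15 would change sign. Which reading is right was not tested.

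Genes that share the work of the members were read from lists. No gene of any of the 15 lists was called in either tissue on the first design (0% of 3838 genes in each direction), and none in liver on the second (0.245% of 4075 genes called lower and 0.0245% higher). Counts of signs and medians are therefore given as descriptions, in ratios averaged over the clones of a gene. In liver on the first design, all 4 measured genes of hepatocyte secreted proteins other than Alb were below 0, with a median of -0.16 beside -0.02 for all genes. In BAT 3 of the 4 were below 0, with a median of -0.10 beside 0.04 for all genes. On the second design both measured genes of the list were above 0 in liver, Igf1 for the growth factor at 0.12 (SE 0.08) and Mbl2 for a mannose-binding lectin at 0.07 (SE 0.08). Apob, the core protein of very-low-density lipoprotein, had -0.38 (SE 0.26), and Apoa1, that of high-density lipoprotein, had -0.17 (SE 0.24). Ttr, the thyroid hormone and retinol carrier transthyretin, had -0.15 (SE 0.21), and Itih1, an inter-alpha-trypsin inhibitor heavy chain, had -0.05 (SE 0.24).

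These genes were lowest on the array on which Alb was low. There they stood at -2.05 for Apob, -1.29 for Itih1, -0.87 for Apoa1 and -0.58 for Ttr, with a median of -1.08 beside -0.06 for all genes. The median was -0.17 with Fob3b in red in the same pool pair, and 0.64 and -0.15 in pool pair 2, and without that array the list's median in liver was 0.04. On the array of Fob3b pool 1 against itself the same 4 genes were all below 0, with a median of -0.33, and on that of F pool 1 against itself the median was -0.13.

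The enzymes of amino acid catabolism in hepatocytes, the wider class of Tdo2, behaved likewise. In liver on the first design 7 of 8 lay below 0, with a median of -0.25, and without the same array the median was 0.15. On that array they had a median of -1.40, with Ahcy at -1.80, Bhmt, which methylates homocysteine from betaine, at -1.65, and Asl, the argininosuccinate lyase of the urea cycle, at -1.52. Cbs, which condenses homocysteine with serine, had -1.43 and the glutamine synthetase gene Glul -0.84. Got1, the cytosolic aspartate aminotransferase, was below 0 on all 4 liver arrays, between -0.48 and -0.08, with a mean of -0.30 (SE 0.19). On the second design, with other clones of the same class, 6 of 8 lay above 0 in liver with a median of 0.11. Ahcy had 0.12 (SE 0.08) there against -0.31 (SE 0.25) on the first design.

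**Figure D4:**
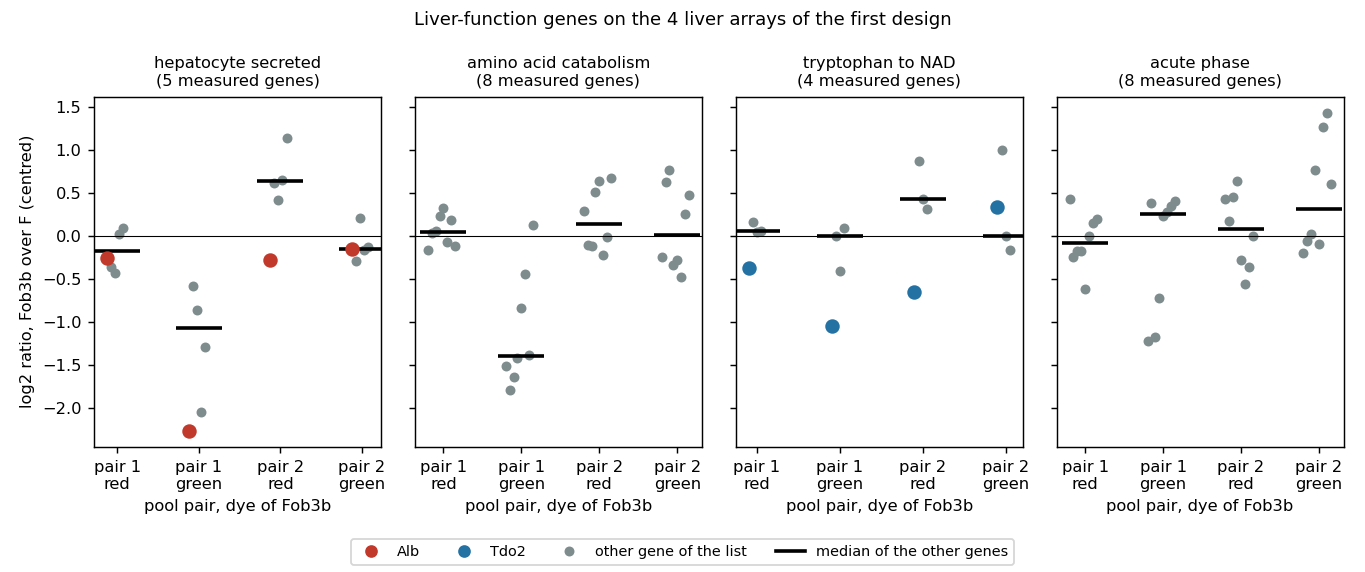
Centred log2 ratios, Fob3b over F, of the measured genes of 4 lists on the liver arrays of the first design, 1 point per gene, with a line at the median of genes other than Alb and Tdo2. On the array of pool pair 1 with Fob3b in green the medians are -1.08 for hepatocyte secreted proteins and -1.40 for amino acid catabolism. The acute-phase genes are split there, with 5 above 0 and 3 below, from -1.22 to 0.41, and a median of 0.26.

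The other 5 measured genes of the tryptophan to NAD list are of linked reactions, and no other listed step from tryptophan to NAD was measured. Of the 5, 4 lay above 0 in liver, where Tdo2 lay below. All 3 measured on the first design had positive means: Kyat1, a kynurenine aminotransferase, 0.51 (SE 0.23), Maoa, the monoamine oxidase A, 0.02 (SE 0.19), and Wars, the tryptophanyl-tRNA synthetase, 0.08 (SE 0.19). On the second design Nampt, which recycles nicotinamide to NAD, had 0.09 (SE 0.09) and Hadh, a mitochondrial hydroxyacyl-CoA dehydrogenase, -0.02 (SE 0.08). In BAT Kyat1 ran between -1.38 and 1.51 over its 4 arrays, and the 3 genes of the first design had a median of 0.06.

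Acute-phase genes other than Lcn2 were near even. On the first design 5 of 8 were above 0 in liver, with a median of 0.10, and 3 of 8 in BAT, with a median of -0.08. The highest liver means were those of Nfkbiz, an inducible regulator of NF-kB target genes, at 0.39 (SE 0.19), Socs3, which restrains STAT3 signalling, at 0.30 (SE 0.18), and the tissue factor gene F3 at 0.25 (SE 0.19). Of these Socs3 was above 0 on all 4 arrays. Mt2 and Mt1, both metallothioneins, had 0.13 (SE 0.26) and -0.22 (SE 0.23), the ceruloplasmin gene Cp had 0.06 (SE 0.19), the fibrinogen chain gene Fga -0.14 (SE 0.23) and A2m, alpha-2-macroglobulin, -0.19 (SE 0.18). On the liver array on which Alb was low the list was split. Fga, Mt1 and Mt2 stood at -1.22, -1.17 and -0.72 there, and the other 5 genes were above 0, at most 0.41. In BAT Nfkbiz and Mt2 were below 0 on all 4 arrays, at -0.45 (SE 0.19) and -0.52 (SE 0.26). On the second design the 1 other acute-phase gene, Lbp for the lipopolysaccharide-binding protein, had 0.04 (SE 0.08) in liver, where it was positive with Fob3b in red and negative with Fob3b in green in both pool pairs.

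Genes of interleukin 6 and NF-kB signalling, upstream of Lcn2 in the known acute-phase response, had medians of 0.02 over 7 genes on the first design and -0.03 over 9 on the second in liver. Irak1, a kinase of interleukin 1 and Toll-like receptor signalling, had 0.42 (SE 0.09) on the second design, between 0.17 and 0.56 on its 4 arrays, and -0.15 (SE 0.19) on the first. Stat3 had 0.05 (SE 0.08) on the second design and -0.06 (SE 0.20) on the first, and Jak1 had 0.09 (SE 0.08) and -0.13 (SE 0.18). The ligand, receptor and iron genes linked to Lcn2 had medians of -0.06 over 7 genes and 0.02 over 6, among them Lrp2, the receptor megalin that takes up lipocalin 2, at -0.11 (SE 0.19) and -0.17 (SE 0.09).

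Markers of other cells that make Lcn2 lay near 0 in liver on the design that measured it. The 3 measured of 15 neutrophil markers had a median of -0.05: S100a9 at -0.05 (SE 0.08), Ltf, the lactoferrin gene, at -0.07 (SE 0.09) and Csf3r at 0.11 (SE 0.08). The 3 measured of 20 macrophage and Kupffer cell markers had a median of 0.02, with C1qa at -0.04 and C1qb at 0.02 (SE 0.08 each) and Fcer1g at 0.04 (SE 0.12). In BAT pool pair 1, where Lcn2 had -0.15, the neutrophil markers had a median of -0.35, and S100a9 and Ltf were below 0 on both arrays. Their part in the Lcn2 ratio was not tested. On the first design Lyz2, the lysozyme of macrophages, was below 0 on all 4 liver arrays, at -0.44 (SE 0.19), and Lgmn had -0.23 (SE 0.20). On the same arrays Cdh5, the endothelial cadherin and the 1 measured of 12 endothelial markers, was above 0 on all 4, at 0.64 (SE 0.22). It also had 0.45 on the array of F pool 1 against itself. Stab1, the 1 endothelial marker of the second design, was below 0 on all 4 liver arrays there, at -0.18 (SE 0.08). Krt19, a keratin of bile duct cells, was above 0 on 3 of 4 arrays of the first design, at 0.50 (SE 0.21). Krt7, another, was above 0 on 2 of 4, at 0.08 (SE 0.20). The part of these cells in the Alb and Tdo2 ratios was not tested. The liver transcription factors Tef, Onecut1, Nr5a2 and Gata6 had a median of -0.14, or -0.0032 without the array on which Alb was low.

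The genes whose ratios ran most like those of a member were found by Pearson's r over the 8 arrays of its design that compare the lines, direct and crossed, as a description. These arrays share pools, dyes and printing blocks. For Alb they were Myo1c, Nectin3 and Ttbk2, each at 0.97, and 61 of 3837 genes had an r over 0.9. Their values on the array on which Alb was low were -0.83, -1.29 and -2.12. Without it, over 7 arrays, their r with Alb was 0.68 for Myo1c, 0.35 for Nectin3 and 0.80 for Ttbk2. For Tdo2 they were Rragc at 0.99, Cept1 at 0.98 and Dnaja3 at 0.97, with 67 genes over 0.9. Rragc had -0.54, Cept1 -0.57 and Dnaja3 -1.14 on the same array, and without it their r was 0.99, 0.96 and 0.99. For Lcn2 they were Tmem19 at 0.93 and Hdhd3 and Rbbp9 at 0.92, with 7 of 4074 genes over 0.9, and their liver means were 0.39, 0.39 and 0.10.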

How the data were processed

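RNA from pools of mouse liver and BAT was hybridised in 2 colours to spotted cDNA arrays of 2 designs, 10 arrays each, with 7680 clones printed as duplicate spots. The authors deposited 1 log ratio per spot, without intensities. The labels give no base: the deposited values were read as log2, since with base 10 the highest, 7.12, would be a ratio of 1.31e+07. Of background correction, normalisation, scanner and numerator dye the labels say nothing. Control spots were left out, spots of a clone were averaged, each array was centred on its median clone and turned to Fob3b over F by the channel labels, and dye swaps of a pool pair were averaged, so that n is 2 pool pairs. Where nothing says how pools were made, the errors measure only the spread between these pools. BAT on the second design has 1 pool pair and no test. The tool was limma 3.58.1 (R 4.3.3), the factor was tissue and tests were two-sided, with Benjamini-Hochberg adjustment over all 7680 clones of a design and a threshold of 0.05. The fit was tested on simulated data. Clones with several genes were not named. For list genes, clones of a gene were averaged. Up to 6 genes of a list, in the order written, and 3 genes by likeness to each member were named by rule, and other genes where the text names them were chosen after their values were seen. Liver and BAT share pool numbers, and their deviations correlated at 0.38 over clones, but the labels give no shared animals, so the fit has no block. The members and lists were chosen with earlier results of these data known.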

Additional observations from a re-analysis of the deposited data

Results flagged for a closer look

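In 142 groups of 4 arrays (1 gene in 1 tissue on 1 design, 2 pool pairs in both dyes), 7 had 1 array whose gap to the nearest of the others took more of the range than Dixon's critical value allows. Chance gives this in about 1 in 20 groups, and the 4 arrays are not 4 independent samples. Alb in liver had its lowest array at -2.27, with a gap of 0.941 of the range. Lgmn, a lysosomal protease gene, in liver on the first design was at -0.97 on the same array. Also on the first design in liver, Pnpla2, the adipose triglyceride lipase gene, had its highest array at 0.41 and Actn3, a muscle alpha-actinin gene, its lowest at -1.12. In BAT on the first design Ttr had its highest array at 0.15 and Tpm2 at 0.20. In liver on the second design Myd88, the adaptor of Toll-like receptors, had its highest array at 0.21. Lcn2 and Tdo2 had no such array.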

How the results depend on the processing

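Over the alternatives run, the liver ratio of Alb ran from -1.26 to -0.21, that of Tdo2 from -0.71 to -0.16 and that of Lcn2 from 0.05 (no centring) to 0.61, with no change of sign. Of the alternative values for the members 7 changed sign and the rest kept it. In BAT, Alb turned positive with Fob3b in green only (0.073), without centring (0.23) and with pool pair 2 alone (0.0031, against -0.089 with pool pair 1 alone). Tdo2 in BAT did so with Fob3b in red only (0.26), without centring (0.20) and with pool pair 2 alone (0.026, against -0.17 with pool pair 1 alone), and its liver minus BAT value with Fob3b in green only (0.043). With liver pool pair 1 alone Alb had -1.26 in liver and -1.22 for liver minus BAT, past the threshold of a fit from which no test is read for it. Clones called on the first design numbered 0 in each comparison. With Fob3b in red only there were 47 in liver, 395 in BAT and 9 for liver minus BAT. BAT gave 1 without centring and 4 fitted alone. Leaving out a pool pair gave 0 to 131 in liver, 0 to 4 in BAT and 0 to 90 for liver minus BAT. Without the liver array of pool pair 1 with Fob3b in green, an alternative chosen after seeing the data, there were 0 in each. With the pool number as a replicate block, liver minus BAT gave 0 calls, -0.70 for Alb (SE 0.28) and -0.36 for Tdo2 (SE 0.22), so the block changed no call. On the second design the 25 liver calls became 0 with arrays scaled to a common spread, printing blocks centred, Fob3b in red only, Fob3b in green only or crossed-pool arrays added, 2 with every array its own replicate, 11 with clones of a gene averaged and 159 without centring. The causes were not tested. Leaving out a pool pair there left no residual degrees of freedom, so Lcn2 has values and no test. Signal over background cannot be judged without intensities.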
